A study of Mus musculus with 8 samples.

Results

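FoxO and PI3K pathway genes were followed in LSK cells, the lineage-negative, Sca1-positive and Kit-positive bone marrow fraction that holds the blood stem cells and multipotent progenitors. They were the 9 genes Foxo1, Foxo3, Foxo4, Irs2, Pik3r1, Pik3r2, Pik3ip1, Txnip and Sesn3, fixed by name and matched by symbol among the 45706 genes of the RNA tables. All 9 were found and all 9 passed the low-count filter that left 16258 genes for testing. The libraries labelled Hira KO came from C57BL/6 mice with a conditional knockout of Hira, which encodes a chaperone of the histone variant H3.3. The libraries labelled WT came from wild-type C57BL/6 mice. The driver of the deletion, the age of the mice and the number of mice per library are not given in the sources used here. Each genotype had 2 RNA-seq libraries and 2 ATAC-seq libraries, the second assay marking open chromatin through transposase insertion.

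PI3K makes the membrane lipid PIP3 when growth factor receptors and their adaptors recruit it, and PIP3 recruits and activates the kinase AKT. AKT phosphorylates the FoxO transcription factors, which then leave the nucleus, so that FoxO target genes are transcribed mainly when PI3K signalling is low. In mouse blood stem cells FoxO factors are known for keeping the cells quiescent and their reactive oxygen low, and excess PI3K or AKT activity is known to exhaust the stem cell pool.

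The RNA libraries held 16.6 to 19.8 M expected counts, 40.8% to 53.1% of them from mitochondrially encoded genes. Hira itself had 24.4 and 23.3 CPM (expected counts scaled by library size) in labelled Hira KO, against 16.5 and 17.2 CPM in labelled WT. The targeted gene was thus not lower in the libraries labelled Hira KO (log2 fold change 0.50, SE 0.19, edgeR adjusted p = 0.180), so every direction below rests on labels that this transcript went against. The names of the deposited tables also carry the genotype opposite to that of the titles, which were followed here. A count over the whole gene can include exons outside the deleted part. The gate markers Kit (330 and 327 CPM in labelled Hira KO, 274 and 351 CPM in labelled WT) and Ly6a, the Sca1 gene (23.1 and 33.6 CPM, against 10.3 and 8.86 CPM), were present in every library. Of 8 stem and progenitor markers edgeR called Hlf, Flt3 and Ly6a higher in labelled Hira KO and none lower, where it called 1.32% of all tested genes higher and 0.48% lower. Their summed level was 1058 and 1349 CPM in labelled Hira KO and 598 and 734 CPM in labelled WT.

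Markers of other cell types and immediate-early genes also differed between the groups. For 10 granulocyte and monocyte markers, led by Mpo, the sum was 1677 and 865 CPM in labelled Hira KO and 4218 and 2695 CPM in labelled WT. All 10 had a log2 fold change below 0. Labelled Hira KO lay below labelled WT without overlap for 9, against 27.8% of all tested genes. Of the 10, edgeR called 2 lower, DESeq2 3 and limma 6, against 78, 508 and 246 to 262 of all tested genes. The sum over 9 erythroid markers was 371 and 103 CPM in labelled Hira KO and 549 and 720 CPM in labelled WT, and edgeR called 1 lower. Of the 9, 6 had a log2 fold change below 0 with groups apart. The other 3, the globin genes Hbb-bs (1.57), Hba-a1 (0.12) and Hba-a2 (0.34), were above 0 with overlapping groups. Car1, the largest part of the sum, had 262 and 41.8 CPM, against 342 and 476 CPM (edgeR adjusted p = 0.517). Over 8 endothelial and stromal markers the sum was 78.4 and 75.2 CPM, against 151 and 154 CPM, with 3 of 7 tested called lower. Of these 7, 6 had a log2 fold change below 0 and 1 above 0. Tjp1, 1 of the 3 called, had 8.34 and 5.41 CPM, against 58.1 and 68.5 CPM. Pecam1, the 1 above 0, had 64.7 and 57.8 CPM, against 53.2 and 44.9 CPM. Col1a1 was at 0 to 0.361 CPM across the libraries and was not tested. Over 10 B and plasma cell markers the sum was 376 and 300 CPM, against 284 and 206 CPM, with Jchain the one gene called (192 and 125 CPM, against 13.1 and 7.17 CPM). Over 9 T and NK cell markers it was 93.8 and 53.6 CPM, against 91.8 and 83.4 CPM. Of these edgeR called Cd4 higher (10.3 and 10.8 CPM, against 3.07 and 3.06 CPM), while Cd3e was at 0.466 to 1.75 CPM. Over 6 megakaryocyte markers it was 46.8 and 29.9 CPM, against 46.9 and 27.0 CPM, with none called by edgeR, DESeq2 or limma and none at an unadjusted p below 0.05.

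For 19 immediate-early genes, known to respond to signalling and to tissue dissociation, the sum was 1467 and 6485 CPM in labelled Hira KO and 318 and 229 CPM in labelled WT. All 18 tested had labelled Hira KO above labelled WT without overlap, against 28.3% of all tested genes. Of the 18, edgeR called 3 higher, DESeq2 17 and limma 13, against 214, 777 and 376 to 392 of all tested genes. At an unadjusted p below 0.05 by edgeR 15 were higher, against 1981 of all 16258 tested genes. The part of these shifts in the results below was not tested, and in bulk RNA fewer cells of a type and less RNA per cell cannot be told apart. Labelled WT replicate 2 carried 1470 counts of Xist and 906 of the Y-linked gene Ddx3y, while the other 3 libraries had 169234 to 232764 of Xist and at most 2 of Ddx3y. The labelled WT libraries thus did not come from the same animal or pool. For labelled Hira KO nothing states whether the replicates were separate mice, so their spread may be technical.

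Of the 9 genes, 1 fell in labelled Hira KO and none rose by edgeR's quasi-likelihood test (Benjamini-Hochberg adjusted p below 0.05). Over all 16258 genes 1.8% were called, 0.48% lower and 1.32% higher. At an unadjusted p below 0.05, 2 of the 9 genes were higher and 1 lower, against 22.8% of all genes in either direction. DESeq2 called 2 higher and 1 lower, and limma on log2(TPM + 1) and on log2(TPM + 0.1) called 0 and 1. The groups stood apart in CPM for 6 genes, 5 of them higher in labelled Hira KO, and this held for 56.1% of all tested genes. The median log2 fold change was 0.42 over the 9 genes and 0.01 over all tested genes.

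**Figure D1:**
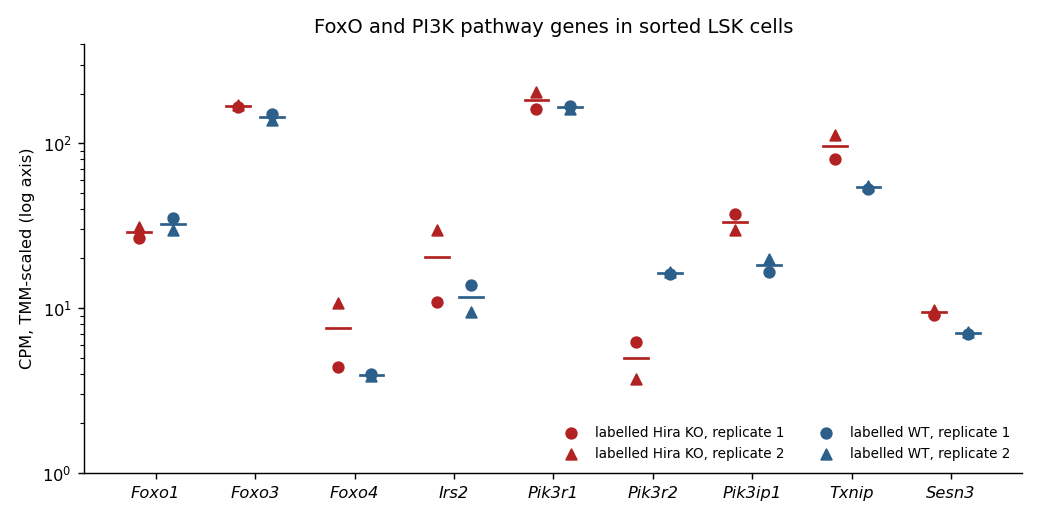
CPM of the 9 genes in each RNA library on a log axis, with labelled Hira KO in red and labelled WT in blue, circles for replicate 1, triangles for replicate 2 and a bar at the mean of each pair. Pik3r2 lay between 3.73 and 6.22 CPM in labelled Hira KO and at 16.1 and 16.6 CPM in labelled WT, while Foxo4 and Irs2 were high in labelled Hira KO replicate 2 alone.

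Compared per transcript length, in TPM, the 9 genes fell into an upper and a lower tier. Pik3r1 stood first in all 4 libraries, with 82.7 and 83.4 TPM in labelled Hira KO and 75.5 and 51.02 TPM in labelled WT. Foxo3 (34.03 to 50.9 TPM) and Txnip (27.7 to 46.4 TPM) followed with ranges that overlapped, so their order was not settled. Pik3ip1 came next at 8.61 to 21.8 TPM and ranked below these 3 in every library. Pik3r2, Sesn3, Irs2, Foxo1 and Foxo4 lay between 1.32 and 8.73 TPM with overlapping ranges, and their order changed from library to library. Among the FoxO genes Foxo3 came first, and the ranges of Foxo1 and Foxo4 overlapped. Foxo3 exceeded Foxo1 in each of the 4 libraries, with 50.9 and 39.5 TPM against 3.98 and 3.47 TPM in labelled Hira KO and with 49.5 and 34.03 TPM against 5.42 and 3.49 TPM in labelled WT.

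The adaptor and the regulatory subunits come first, since they carry the signal into PI3K. Irs2 encodes the insulin receptor substrate that docks PI3K to insulin and IGF1 receptors, and it is itself a FoxO target in mouse liver. It had 10.9 and 29.8 CPM in labelled Hira KO, against 13.7 and 9.52 CPM in labelled WT. Labelled Hira KO replicate 2 was high and the groups overlapped. The log2 fold change of 0.81 (SE 0.49, 95% interval -0.40 to 2.02, edgeR adjusted p = 0.383) did not pass. Without labelled Hira KO replicate 2, the library with the highest immediate-early level, it was -0.094 (adjusted p = 0.897), and with replicate 2 as the lone library of that group it was 1.34 (adjusted p = 0.00606). With 1 library left in a group, the p rests on the spread of the other group's pair, and the lone library is assumed to vary like it. Leaving out labelled Hira KO replicate 1 in this way raised the calls over all genes to 1657 higher and 1888 lower. Over all 12 alternative settings the adjusted p of Irs2 ran between these 2 values.

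Pik3r2 encodes p85-beta, a regulatory subunit that stabilises the catalytic subunit of PI3K and holds it inactive until a receptor or adaptor is bound. It had 6.22 and 3.73 CPM in labelled Hira KO, against 16.1 and 16.6 CPM in labelled WT, from 120 and 62 expected counts against 305 and 303. Both labelled Hira KO libraries were low, and the groups did not overlap. Pik3r2 fell to 4.97 ± 1.76 CPM in labelled Hira KO, against 16.4 ± 0.306 CPM in labelled WT (SD, n = 2 each; log2 fold change -1.71, SE 0.31, 95% interval -2.44 to -0.98, edgeR adjusted p = 0.0481). Leaving out labelled WT replicate 1 or replicate 2 gave log2 fold changes of -1.74 and -1.71, with the spread taken from the labelled Hira KO pair. The call was lost in both fits, but so were nearly all calls over all genes. The adjusted p was 0.0509 with the stricter low-count filter. The range over 12 alternatives was 3.83e-06 to 0.399, with log2 fold changes of -2.15 to -1.39.

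Pik3r2 (chromosome 8, 70768176 to 70776712, GRCm38) lies in a cluster of genes, and the libraries are not known to keep strand. Ifi30, a lysosomal thiol reductase gene 1512 bases from it, also fell, with 5.08 and 3.85 CPM in labelled Hira KO against 19.8 and 13.0 CPM in labelled WT (log2 fold change -1.87, SE 0.32, edgeR adjusted p = 0.0427). It too lost the call when either labelled WT library was left out, as nearly all called genes did. Mpv17l2, 7243 bases away, had 5.23 and 2.16 CPM in labelled Hira KO and 8.42 and 7.88 CPM in labelled WT (log2 fold change -1.13, adjusted p = 0.185). On the other side Mast3, a kinase gene 1404 bases away, had 101 and 118 CPM in labelled Hira KO and 89.3 and 93.3 CPM in labelled WT (log2 fold change 0.26, adjusted p = 0.345). Rab3a, 9567 bases away, stood at 0.962 to 2.02 CPM in all 4 libraries, with overlapping groups. Whether reads of Ifi30 and Pik3r2 arise from shared transcripts was not tested.

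**Figure D2:**
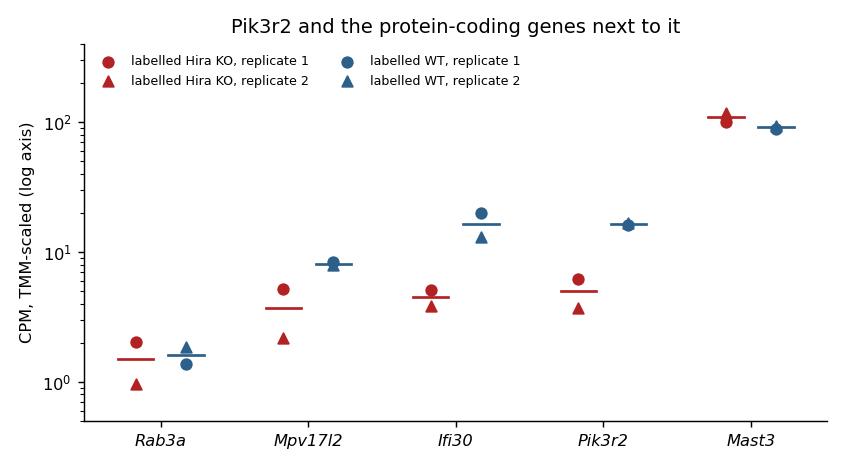
CPM of Pik3r2 and of the 4 protein-coding genes within 10 kb of it, in chromosome order on a log axis, with labelled Hira KO in red and labelled WT in blue (circles replicate 1, triangles replicate 2, bars the mean of each pair). Ifi30 and Pik3r2 both lay below labelled WT in both labelled Hira KO libraries, whereas Mast3 lay above it.

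The genes of at least 3 on the log2 CPM scale whose profile over the 4 libraries was nearest to that of Pik3r2, among 8694 such genes, were Gstm5, Poc1a and Rrm2. The measure was the root mean square distance between log2 profiles, each centred on its mean, which was 0.07 for Gstm5, 0.09 for Poc1a and 0.13 for Rrm2. Gstm5, a glutathione S-transferase gene, had 7.51 and 4.33 CPM in labelled Hira KO and 19.0 and 21.7 CPM in labelled WT. Rrm2, the ribonucleotide reductase subunit gene, had 34.1 and 19.1 CPM, against 72.7 and 68.3 CPM.

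Pik3r1 encodes p85-alpha and, from start sites inside the gene, the shorter p55-alpha and p50-alpha. It had 161 and 205 CPM in labelled Hira KO, against 168 and 162 CPM in labelled WT. The groups overlapped, and the log2 fold change was 0.15 (SE 0.16, 95% interval -0.23 to 0.53, edgeR adjusted p = 0.625). The sign turned without labelled Hira KO replicate 2 (-0.037, adjusted p = 0.899). Its mean transcript length, which the authors' estimates weight by isoform abundance, was 2685 and 2526 bases in labelled Hira KO, against 3124 and 3384 bases in labelled WT. Both labelled Hira KO libraries were shorter, with a ratio of means of 0.801. A drop at least as large with groups apart was found in 1.74% of 8695 genes of at least 3 on the log2 CPM scale. Pik3r1 stood at 7.44 on that scale, and the compared genes included some of unchanging length. In TPM, which divides by that length, Pik3r1 lay higher in both labelled Hira KO libraries, while in CPM the groups overlapped. The 9-gene set held no other gene with labelled Hira KO below labelled WT in length, and the lengths of Foxo1, Irs2 and Sesn3 were the same in all libraries.

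RefSeq (GRCm38.p6) lists 2 starts of Pik3r1, and the sequences before them differ in composition. They are shown because the ATAC regions over both were called in all 4 libraries. Capitals mark CCAAT or its complement ATTGG, and the 250 bases before each start are given 5′ to 3′ on the minus strand.
Pik3r1 long start, chr13:101768218-101768467: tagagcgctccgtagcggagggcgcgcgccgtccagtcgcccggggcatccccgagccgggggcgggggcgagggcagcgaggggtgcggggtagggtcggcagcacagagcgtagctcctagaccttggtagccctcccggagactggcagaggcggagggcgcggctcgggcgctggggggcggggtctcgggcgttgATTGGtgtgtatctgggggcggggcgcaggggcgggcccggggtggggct
Pik3r1 internal start, chr13:101692631-101692880: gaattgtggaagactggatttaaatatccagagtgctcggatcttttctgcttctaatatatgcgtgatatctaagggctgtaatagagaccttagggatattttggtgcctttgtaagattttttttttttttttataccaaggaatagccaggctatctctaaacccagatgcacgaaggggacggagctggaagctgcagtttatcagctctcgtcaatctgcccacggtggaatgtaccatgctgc
The window of the long start was 76.4% G or C and held 1 CCAAT box, which 33.8% of all 32851 promoter windows of that length held on either strand. The window of the internal start was 42.4% G or C and held none, against a median of 52.4% G or C over all windows. The ATAC region over the long start had authors' fold enrichments of 88.1 and 58.3 in labelled Hira KO and 116 and 65.7 in labelled WT. At the internal start they were 58.3 and 36.0 in labelled Hira KO and 79.5 and 48.6 in labelled WT. In each library the long start had the higher value. These are the peak caller's values per library, and no test was made between lists.

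Pik3ip1 encodes a transmembrane protein that binds the catalytic subunit and inhibits PI3K. It had 37.3 and 29.7 CPM in labelled Hira KO, against 16.5 and 19.9 CPM in labelled WT. Both labelled Hira KO libraries were high, and the groups did not overlap. Its log2 fold change was 0.88 (SE 0.21, 95% interval 0.39 to 1.37), with an edgeR adjusted p of 0.0734, just outside the threshold, and 0.00436 to 0.540 over the alternatives. DESeq2 called it (adjusted p = 0.0345). Its 95% interval lay above 0, but it covers this gene alone and is not adjusted for the other genes tested.

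Among the FoxO factors none passed. Foxo1 had 26.5 and 31.1 CPM in labelled Hira KO, against 35.0 and 29.6 CPM in labelled WT, with overlapping groups (log2 fold change -0.17, 95% interval -0.61 to 0.28, edgeR adjusted p = 0.654). Foxo3, the factor known to be needed for mouse stem cell self-renewal, had 166 and 170 CPM, against 150 and 138 CPM. Both labelled Hira KO libraries were above both labelled WT libraries, but by little (log2 fold change 0.22, SE 0.14, 95% interval -0.10 to 0.55, edgeR adjusted p = 0.372). These intervals leave out a change of Foxo1 or Foxo3 by a full log2 unit either way.

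Foxo4, which is X-linked, had 4.404 and 10.7 CPM in labelled Hira KO, against 3.97 and 3.88 CPM in labelled WT. Only labelled Hira KO replicate 2 was clearly high, at 178 expected counts against 71 to 85 in the other 3 libraries. The log2 fold change was 0.94 (SE 0.45, 95% interval -0.12 to 2.001, edgeR adjusted p = 0.266). It was 0.16 without that library (adjusted p = 0.865), but 1.42 when replicate 1 of that group was left out instead (adjusted p = 0.0149, with the spread of the labelled WT pair alone), the range of its adjusted p over the alternatives. Without labelled WT replicate 2, the library with Y-linked counts, it was 0.91.

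Genes that FoxO factors or nutrient signals are known to regulate form the last group. Txnip encodes a thioredoxin-binding arrestin-domain protein that restrains glucose uptake. It had 80.0 and 113 CPM in labelled Hira KO, against 52.8 and 55.3 CPM in labelled WT. Both labelled Hira KO libraries were high, replicate 2 more so, and the groups did not overlap. Its log2 fold change was 0.83 (SE 0.19, 95% interval 0.38 to 1.29), with an edgeR adjusted p of 0.0707 and of 0.000681 to 0.524 over the alternatives. DESeq2 called Txnip (adjusted p = 0.0142), and limma on log2(TPM + 1) did not (0.67, adjusted p = 0.524). The long noncoding gene Gm15441, whose body spans Txnip, had at most 0.481 CPM in any library. Sesn3, a sestrin gene whose protein restrains mTORC1, had 9.07 and 9.80 CPM in labelled Hira KO, against 6.99 and 7.11 CPM in labelled WT. Its groups stood apart but did not pass (0.42 on the log2 scale, SE 0.27, 95% interval -0.20 to 1.04, edgeR adjusted p = 0.387).

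**Figure D3:**
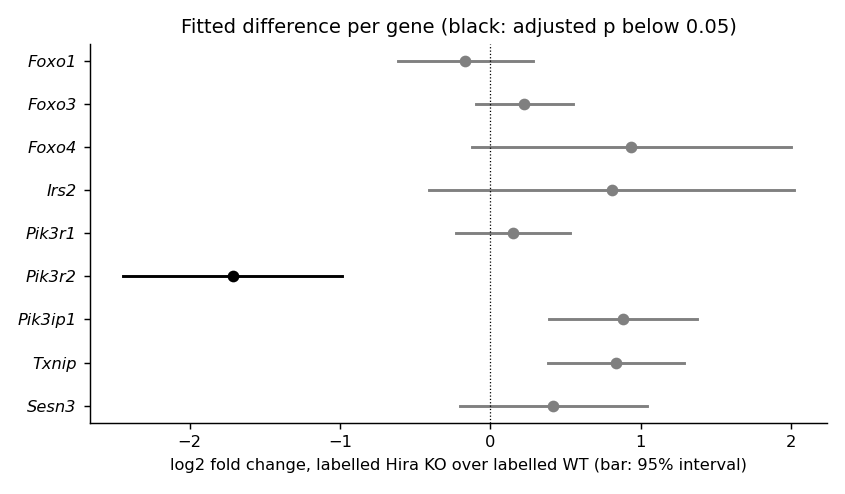
Fitted log2 fold change of each gene, labelled Hira KO over labelled WT, with its 95% interval from edgeR, black where the adjusted p was below 0.05 and grey otherwise. The interval of Pik3r2 lay below 0, those of Pik3ip1 and Txnip lay above 0 without passing the adjustment over all genes, and the other 6 included 0.

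The bases before the starts of Txnip and Pik3r2 are shown because Pik3r2 fell and Txnip had a positive change that missed the threshold, while an ATAC region over each start was called in all 4 libraries. Capitals mark 3 motifs, searched on both strands: the forkhead element GTAAACA that FoxO factors bind, the carbohydrate response element bound by the glucose-responsive factors MondoA and ChREBP, and CCAAT. The GC box GGGCGG was searched too and is not capitalised.
Txnip, plus strand, chr3:96557707-96557956: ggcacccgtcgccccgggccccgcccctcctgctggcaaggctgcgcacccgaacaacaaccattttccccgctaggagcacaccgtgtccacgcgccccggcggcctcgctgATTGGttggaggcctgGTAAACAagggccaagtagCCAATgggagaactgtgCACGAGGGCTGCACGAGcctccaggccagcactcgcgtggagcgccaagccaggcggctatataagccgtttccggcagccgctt
Pik3r2, minus strand, chr8:70776713-70776962: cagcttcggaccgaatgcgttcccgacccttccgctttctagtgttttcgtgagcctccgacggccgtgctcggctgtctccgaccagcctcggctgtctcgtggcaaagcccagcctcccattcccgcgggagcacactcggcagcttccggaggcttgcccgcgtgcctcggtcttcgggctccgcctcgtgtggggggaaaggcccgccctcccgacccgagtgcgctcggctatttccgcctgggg
The Txnip window held the forkhead element starting 121 bases before the start site, the carbohydrate response element starting 85 bases before it and 2 CCAAT boxes, and the motifs did not overlap. The forkhead letters were in 3.17% of 32851 windows of that length and the carbohydrate response letters in 0.0457%, or 15 windows. The letters were chosen with earlier results known, so these shares are descriptive and no test of Txnip. The Pik3r2 window held none of the 3 and 1 GC box, which the Txnip window held as well, as did 32.7% of all windows, and no other window of the 9 genes held the forkhead or the carbohydrate response letters. Foxo4 had no entry in the promoter table. Letters in a window do not show binding.

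The rest of the pathway was read from 9 lists of 113 other genes, of which 107 were tested. Over these lists 2 genes rose and 1 fell, beside the 1.32% and 0.48% of all genes, and the median log2 fold change was 0.05. Of 8 other PI3K subunit and adaptor genes, Pik3r6 fell and none rose by edgeR, while DESeq2 called 1 lower and 1 higher and limma 1 lower. Pik3r6, the p84 adaptor of PI3K-gamma, had 0.881 and 0.541 CPM in labelled Hira KO and 5.45 and 5.03 CPM in labelled WT (log2 fold change -2.86, SE 0.47, edgeR adjusted p = 0.0394). Its call was lost when either labelled WT library was left out, as were nearly all calls, and on log2(TPM + 1) the change was -1.59. The gene of the catalytic subunit it serves, Pik3cg, had 140 and 190 CPM in labelled Hira KO and 109 and 98.0 CPM in labelled WT (log2 fold change 0.67, adjusted p = 0.0956).

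Among 12 other sestrin and GATOR genes, which sense amino acids and stress upstream of mTORC1, Sesn1 rose and none fell by edgeR, while DESeq2 called 2 higher and limma 1. Sesn1 had 42.7 and 41.4 CPM in labelled Hira KO and 20.2 and 23.1 CPM in labelled WT, with groups well apart (log2 fold change 0.96, SE 0.18, edgeR adjusted p = 0.0495). Like nearly all called genes, it was not called when either labelled WT library was left out. Nor was it called by limma on log2(TPM + 1), at an adjusted p of 0.354. The largest fitted change in that list was that of Castor1, an arginine sensor gene named here after its values were seen, with 2.33 and 2.76 CPM in labelled Hira KO and 0.106 and 0.274 CPM in labelled WT (3.71, SE 0.74, edgeR adjusted p = 0.0559). Of 10 tested thioredoxin and arrestin-domain genes, the Txnip relative Arrdc3 rose and none fell. Arrdc3 had 36.8 and 64.9 CPM in labelled Hira KO and 17.04 and 14.6 CPM in labelled WT (log2 fold change 1.68, SE 0.29, edgeR adjusted p = 0.0462). Like nearly all called genes, it was not called when either labelled WT library was left out. With the stricter filter it missed the threshold (edgeR adjusted p = 0.0510). Arrdc4, a paralog with known glucose response, had a log2 fold change of -0.01 and overlapping groups.

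None of 28 tested FoxO targets passed edgeR, although 9 had an unadjusted p below 0.05, all of them higher in labelled Hira KO. Over all 16258 tested genes, 1981 were higher and 1722 lower at that unadjusted threshold. DESeq2 called 3 higher and limma 2, and none was called lower. The median log2 fold change of this list was 0.35, and 14 of 28 genes had labelled Hira KO above labelled WT without overlap, against 28.3% of all genes. The autophagy gene Gabarapl1 had 20.5 and 20.3 CPM in labelled Hira KO and 11.2 and 8.32 CPM in labelled WT (log2 fold change 1.06, edgeR adjusted p = 0.0676). Bcl2l11, the gene of the pro-death protein BIM, had 33.2 and 111 CPM, against 23.0 and 20.7 CPM (1.72, adjusted p = 0.227). Klf2 had 8.81 and 96.0 CPM, against 1.38 and 1.91 CPM (4.99, adjusted p = 0.224). Labelled Hira KO replicate 2 stood far above replicate 1 for Bcl2l11 and Klf2, as it did for the immediate-early genes, and their part in these values was not tested.

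**Figure D4:**
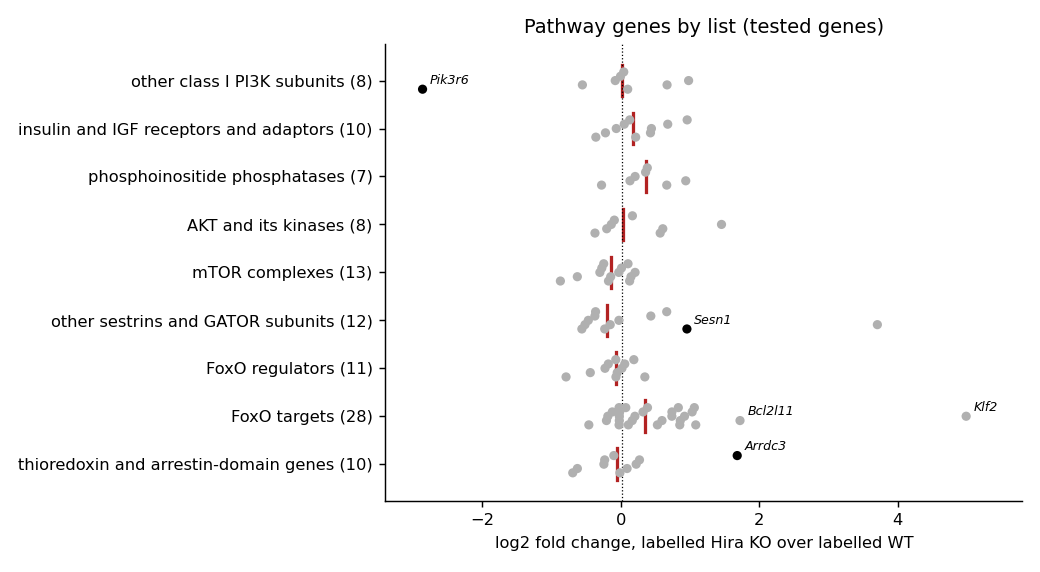
Log2 fold change, labelled Hira KO over labelled WT, of every tested gene in the 9 pathway lists, with the number tested beside each list name, red ticks at the list medians, black for genes with an edgeR adjusted p below 0.05 and a dotted line at the median of all genes. Pik3r6, Sesn1 and Arrdc3 were called, and the list medians lay between -0.19 and 0.36.

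The 5 other lists had no call by edgeR. Their unadjusted counts stand beside 1981 genes higher and 1722 lower of all 16258 tested. Among 7 phosphoinositide phosphatase genes 2 were higher at an unadjusted p below 0.05, DESeq2 called 1 and limma 0. The AKT phosphatase gene Phlpp1 had 23.1 and 28.6 CPM in labelled Hira KO and 14.0 and 12.9 CPM in labelled WT (log2 fold change 0.94, edgeR adjusted p = 0.0674). Inpp4b had 0.66 and Phlpp2 0.38. Among 8 AKT, SGK and GSK3 genes 2 were higher unadjusted, and neither DESeq2 nor limma called any. Sgk3 had a log2 fold change of 0.61 and Sgk1 one of 1.45, and Sgk1 was high in labelled Hira KO replicate 2 alone (6.48 and 20.8 CPM, against 6.25 and 3.67 CPM in labelled WT).

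Of 10 tested insulin and IGF receptor and adaptor genes 2 were higher unadjusted and none was called by DESeq2 or limma. They were the adaptor genes Gab2 (log2 fold change 0.68, edgeR adjusted p = 0.109) and Gab3 (0.96, adjusted p = 0.120). Among genes of at least 3 on the log2 CPM scale, Igf1r (0.43) and Sh2b3 (-0.36) followed Gab2 in size. Of 13 mTOR complex genes 1 was lower unadjusted and none was called by DESeq2 or limma. It was Eif4ebp1, the translation repressor that mTORC1 phosphorylates, with 9.59 and 6.37 CPM in labelled Hira KO and 13.7 and 15.5 CPM in labelled WT (-0.87, adjusted p = 0.133). Deptor (-0.30) and Rps6kb1 (-0.27) followed among genes of at least 3 on the log2 CPM scale, and Akt1s1, below that level, had -0.63. Of 11 tested FoxO regulators 1 was higher and 2 lower unadjusted, DESeq2 called 1 lower and limma none. Skp2, a ubiquitin ligase gene, had 35.3 and 24.6 CPM in labelled Hira KO and 52.1 and 51.4 CPM in labelled WT (-0.79, adjusted p = 0.0913), ahead of the 14-3-3 gene Ywhag (-0.44) and the kinase gene Stk4 (0.35).

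In the ATAC lists 122 merged regions lay within 10 kb of the 9 gene bodies. Of these 45.9% were called in all 4 libraries, 7.38% in both labelled Hira KO libraries only and 3.28% in both labelled WT libraries only. Over all 112479 regions the shares were 40.7%, 5.64% and 2.77%. The counts were 56, 9 and 4 regions. The start sites of all 8 genes with an entry in the promoter table were covered by a region called in every library. For each of the 9 genes the region of highest mean fold enrichment was called in all 4 libraries, and it ranked above at least 80.1% of the peaks in each list. That of Pik3r2 lay outside the gene, near Mpv17l2, with 110 and 97.5 in labelled Hira KO and 92.9 and 98.5 in labelled WT. Sesn3 had the fewest regions, 2, both called in every library. The region over its start had fold enrichments of 149 and 135 in labelled Hira KO and 137 and 94.2 in labelled WT, the highest enrichment over a start site in each library, from a gene of the lower RNA tier.

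The regions called in 1 group only were weak, with fold enrichments of 3.28 to 7.93. Pik3r1 had 4 regions called in labelled Hira KO only and 2 in labelled WT only. Foxo1 had 2 and Foxo3 and Irs2 1 each in labelled Hira KO only, and none in labelled WT only. Txnip had 1 in labelled Hira KO only, at -6381 bases from its start, and 2 in labelled WT only, 3225 and 3821 bases after the start at the end of the gene. Over all tested genes with regions, 23.4% had a region called in labelled Hira KO only and 17.7% one called in labelled WT only. These shares do not allow for the number of regions per gene. Its median was 6 over tested genes with a position, against 11 to 33 for the 5 genes above. Pik3r2, Pik3ip1, Foxo4 and Sesn3 had neither. Pik3r2 thus fell in RNA while the region over its start was called in every library, with fold enrichments of 67.6 and 54.2 in labelled Hira KO and 54.8 and 43.3 in labelled WT. The region over the start of Txnip had 76.2 and 52.2 in labelled Hira KO and 78.5 and 57.4 in labelled WT.

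Of the 56 regions called in all 4 libraries, 8 had both labelled Hira KO fold enrichments above both labelled WT values. Another 11 had them below. The same shares were not counted over all regions, so these counts are not read as a trait of the 9 genes. Those with the widest contrasts are described after their values were seen. The region 4932 bases after the start of Pik3ip1 (chromosome 11, 3335663 to 3336374, inside the gene) had fold enrichments of 22.6 and 16.8 in labelled Hira KO and 5.20 and 4.92 in labelled WT. It ranked above 86.1% and 77.5% of the peaks in the labelled Hira KO lists and above 39.9% and 26.2% in the labelled WT lists. The region 6495 bases after the start of Txnip (chromosome 3, 96564452 to 96565072, beyond the gene) had 19.1 and 15.4 in labelled Hira KO and 7.89 and 7.22 in labelled WT. In the other direction, the Pik3r1 region at chromosome 13, 101731711 to 101732160, had 3.73 and 4.46 in labelled Hira KO and 12.3 and 9.19 in labelled WT. The Pik3r1 region at 101760846 to 101762089 had 21.2 and 16.8 in labelled Hira KO and 41.8 and 34.5 in labelled WT. No read depth comes with these lists, so these contrasts had no test. At Pik3ip1 the strongest region began 957 bases after the RefSeq start used here, with 78.6 and 48.0 in labelled Hira KO and 69.5 and 56.5 in labelled WT. The region over that start had only 14.2 and 8.58 in labelled Hira KO and 11.0 and 11.8 in labelled WT.

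**Figure D5:**
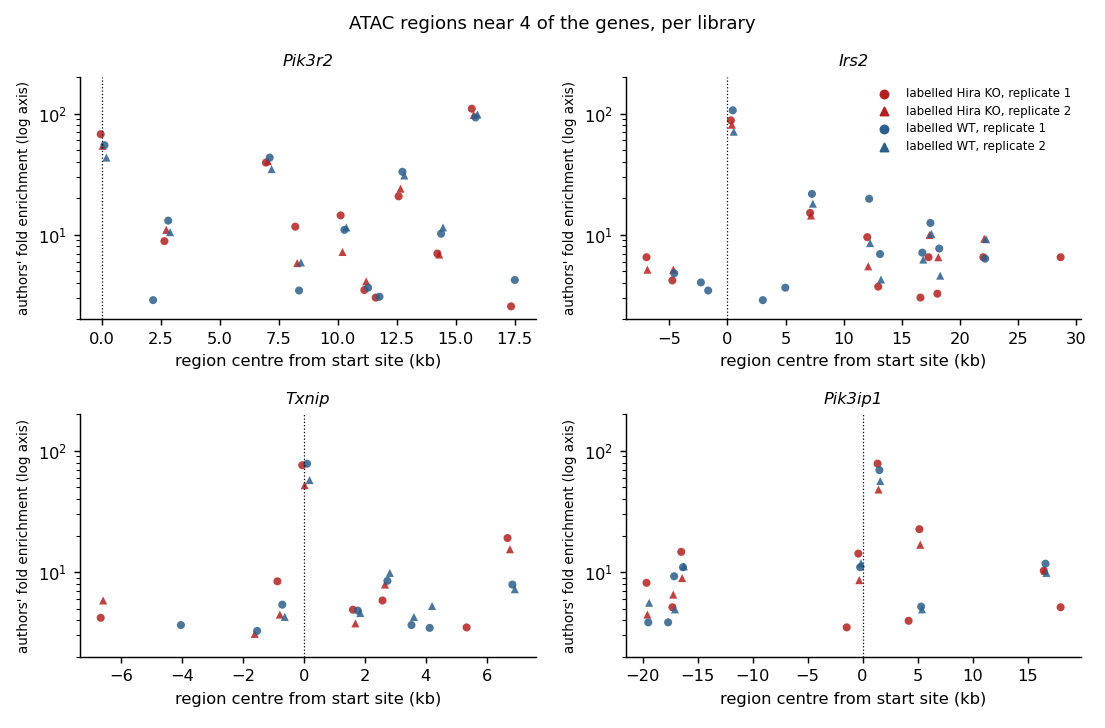
Authors' fold enrichment on a log axis against the distance of each region's centre from the RefSeq start site, in the direction of transcription, at Pik3r2, Irs2, Txnip and Pik3ip1, for labelled Hira KO (red) and labelled WT (blue), circles for replicate 1 and triangles for replicate 2. The 4 libraries of a region are set slightly apart along the axis, and a library without a symbol did not call the region. The regions after the starts of Pik3ip1 and Txnip at 22.6 and 19.1 in labelled Hira KO replicate 1 stand above their labelled WT values.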

How the data were processed

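The deposited files cover LSK cells sorted from mice, with 2 labelled Hira KO and 2 labelled WT libraries each for RNA-seq and ATAC-seq, grouped by sample title. RNA was amplified and made into libraries with NuGEN and Nextera XT kits, per the labels' protocols, and nothing there says that strand was kept. Per the submitters' processing notes, RSEM 1.3.0, STAR 2.5.3a, MACS2 2.1.1, Bowtie2 2.2.9, HTSeq, Trim Galore 0.4.5 and GRCm38 were used, with no role stated, nor any shift of reads for the transposase. The authors' expected counts are estimates per gene that need not be whole, and the authors' TPM values are scaled per length and library, per the file headers. Mean transcript lengths are also the authors' estimates. The deposited peak lists give, per library, a fold enrichment (a ratio) and the -log10 of a p-value and a q-value, without read depth.

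After rounding, the expected counts entered edgeR 4.0.16 under R 4.3.3 (TMM, filterByExpr, quasi-likelihood F test, robust, genotype only), adjusted by Benjamini-Hochberg over 16258 genes and called below 0.05. SEs and 95% intervals came from the F statistic, and the biological coefficient of variation was 27.8%. DESeq2 1.42.0 and limma 3.58.1 were alternatives. Libraries of a group differed beyond sampling noise (chi-square per gene 66.2 in labelled Hira KO, 49.1 in labelled WT). Symbols were found for 45143 of 45706 IDs, and positions and promoter windows came from RefSeq GRCm38.p6. Peaks sharing an interval counted once, mitochondrial peaks were left out, and peaks overlapping by at least 1 bp were merged. Simulated counts served to check the edgeR fit, and made-up lists the merging. The genes, lists, motif letters and tests were chosen with earlier results of these data known. Besides the 9 genes and Hira, the text names each called list gene, or in a list without calls the 3 largest changes at an average log2 CPM of at least 3, and adds, after their values were seen, Ifi30 and the other neighbours, Pik3cg, Castor1, Gab3, Akt1s1 and Arrdc4. Some genes that this rule names are not reported here.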

Additional observations from a re-analysis of the deposited data

How the results depend on the processing

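Over all genes edgeR called 214 higher and 78 lower, DESeq2 777 and 508, edgeR with no low-count filter 1206 and 1017, limma on log2(TPM + 1) 392 and 262 and on log2(TPM + 0.1) 376 and 246, and the stricter filter gave 50 lower. With 1 RNA library left out the calls ran from 1 to 1657 higher and from 1 to 1888 lower, fewest without a labelled WT library. Of the 9 genes, DESeq2 and the unfiltered fit each called 2 higher, the stricter filter 0 lower, and with 1 library left out 0 to 4 were called higher and 0 to 1 lower. Of the pathway lists, 2 higher and 1 lower became 8 and 2 by DESeq2, 14 and 4 unfiltered, 1 and 0 with the stricter filter, 4 higher by limma on either scale, and 0 to 21 higher and 0 to 10 lower with 1 library left out. Without labelled Hira KO replicate 2 the log2 fold change turned sign for Irs2, Pik3r1, Phlpp2 and Deptor, and with 1 library left out it ran from -0.094 to 1.34 for Irs2, from -0.037 to 0.29 for Pik3r1, from -0.11 to 0.76 for Phlpp2 and from -0.73 to 0.011 for Deptor. The cause of these shifts was not tested. The median over the genes tested was 0.133 by DESeq2 and 0.130 unfiltered, against 0.0141. Of 108 alternative values of the 9 genes, 93 kept direction and side of the threshold, 10 passed where the reported value had not, 3 lost the call (Pik3r2) and 2 turned sign. With replicate number as a block, 368 genes were higher and 169 lower, and no call among the 9 genes changed. Replicate differences of the 2 groups correlated at 0.0388 across 16258 genes, and nothing in the labels pairs the numbers. Within 50 kb, 216 regions lay near the genes, 96 of them called in all libraries. At a -log10 q of at least 5, 2 regions were called in labelled WT only. With 1 ATAC library left out, 10 to 26 regions were called in labelled Hira KO only and 4 to 15 in labelled WT only. Few counts limit genes such as Foxo4, Pik3r2 and Pik3r6, and the peak lists carry no depth. A fit with 1 library left in a group takes its spread from the other group alone.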
